A study of Mus musculus with 18 samples.

Results

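The glutathione, thioredoxin, peroxiredoxin, superoxide dismutase, catalase, haem oxygenase and quinone reductase genes form the antioxidant defence described here. Brain tissue came from Aldh5a1-/- mice, called KO below, and from wild-type (Wt) mice, called WT. Members were all probe sets whose only annotated symbol begins with Gst, Gpx, Prdx, Txn, Gcl or Sod, or is Gss, Gsr, Cat, Hmox1, Hmox2 or Nqo1. They numbered 63 of the 12488 probe sets on the Affymetrix mouse array and named 48 of the 8252 genes with a probe set of their own. The deleted gene codes for the enzyme that turns succinate semialdehyde, a product of GABA, into succinate in mitochondria. From each of 3 KO animals (3363, 3389 and 3403) and 3 WT animals (3405, 3406 and 3396), hippocampus, cerebellum and cortex were taken and put on separate arrays, 18 in all with 3 per genotype and region. The labels give no strain, age, sex or treatment, and no probe set (0) was assigned to Aldh5a1, so the genotype rests on the labels. Values are called signal, a scaled intensity on a linear scale, and triplets are listed in the order of animals just given.

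Glutathione is made by glutamate-cysteine ligase (catalytic subunit Gclc, modifier Gclm) and glutathione synthetase (Gss), and its oxidised form is returned to the reduced form by glutathione reductase (Gsr). Glutathione peroxidases (Gpx) spend it on peroxides and glutathione transferases (Gst) attach it to electrophiles, including the reactive aldehydes of lipid oxidation. The thioredoxins run a parallel chain, in which thioredoxin reductases (Txnrd) recharge thioredoxin and thioredoxin recharges the peroxiredoxins (Prdx). Many of these genes, with Hmox1 and Nqo1, can be induced by the transcription factor Nrf2 (gene Nfe2l2) through the antioxidant response element of their control regions. In brain, much of the glutathione system is known as astrocytic.

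Of the 63 member probe sets, 54, for 43 genes, lay above the 40th percentile of their array on at least 3 of the 18 arrays and were kept for testing, among 8382 kept probe sets in all. The 9 not kept were both of Gstm6, both of Gpx5, and 1 each of Gsta1, Gsta3, Gpx7, Prdx2 and Txnrd3. A further 2 probe sets carry a second symbol beside a peroxiredoxin and were outside the rule. Affymetrix adds _f_at to the name of a probe set that several members of a family can match, and _r_at to one picked with relaxed rules. Readings of the mu-class transferases, whose genes are close copies in 1 cluster, are therefore shared to an unknown degree.

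The region was taken from the title, since the source field reads hippocampus throughout, and each of the 18 arrays resembled its own titled region most. The cerebellar marker list (7 of 7 genes kept) had a summed signal of 16755 to 17687 in WT cerebellum and 864 to 1127 in WT hippocampus. These are whole tissue pieces, in which fewer cells of a type and less RNA per cell cannot be told apart. Marker lists differed between the groups as well. The kept oligodendrocyte markers (7 of 8 genes on the array, without Cnp) summed to 5565 to 7189 in KO and 8317 to 13399.7 in WT hippocampus, and to 4702 to 5958 and 9220.2 to 11764 in cortex. Neuron markers (7 of 7 genes) summed to 10512 to 11407 in KO and 12026 to 13592 in WT cerebellum and to 14337 to 14841 and 15092 to 16088 in cortex, both without overlap, and to 12809 to 14276 and 13690.0 to 14465 in hippocampus. Hippocampal markers (4 of 4 genes) summed to 2818 to 3353 in KO and 2575 to 2781 in WT hippocampus. Bergmann glia markers (3 of 3 genes) summed to 3226 to 3334 in WT cerebellum, 1099 to 1331 in hippocampus and 670.4 to 905 in cortex. The part of these lists in the member values, between genotypes or regions, was not tested. Controls of RNA integrity also differed between regions (below), and their part was not tested either.

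Promoter windows of the RefSeq table (GRCm38.p6, 250 bases before to 50 after a start) were at hand for 40 of the 48 member genes. The core of the antioxidant response element, TGACNNNGC, was searched on both strands, and 6 of the 40 genes (15%) held it: Gclm, Gsta3, Gstm5, Sod1, Txndc5 and Txnrd1. Over all 27025 genes of the table the share was 14.0%, so the window searched does not set the members apart. The windows shown belong to Gstm5 and Gstt1, the members with the lowest p between WT regions and with opposite regional patterns, and to Gclm, a subunit of the synthesis enzyme. They lie at chr3:107895604-107895903 (+ strand), chr10:75797682-75797981 (- strand) and chr3:122245307-122245606 (+ strand). Capitals mark the core element, which in Gclm is read from the other strand, and the Gstt1 window has none (0).
Gstm5: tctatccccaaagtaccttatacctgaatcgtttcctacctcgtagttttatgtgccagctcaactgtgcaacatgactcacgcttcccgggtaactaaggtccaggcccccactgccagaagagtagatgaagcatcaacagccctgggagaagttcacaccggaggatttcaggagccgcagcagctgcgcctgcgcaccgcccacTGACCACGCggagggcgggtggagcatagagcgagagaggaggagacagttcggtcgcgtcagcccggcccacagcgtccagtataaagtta
Gstt1: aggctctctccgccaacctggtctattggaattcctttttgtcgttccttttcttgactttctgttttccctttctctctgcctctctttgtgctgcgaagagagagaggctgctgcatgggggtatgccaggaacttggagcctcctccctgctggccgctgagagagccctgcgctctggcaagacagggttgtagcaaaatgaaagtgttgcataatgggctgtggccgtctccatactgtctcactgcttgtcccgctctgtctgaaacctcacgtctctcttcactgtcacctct
Gclm: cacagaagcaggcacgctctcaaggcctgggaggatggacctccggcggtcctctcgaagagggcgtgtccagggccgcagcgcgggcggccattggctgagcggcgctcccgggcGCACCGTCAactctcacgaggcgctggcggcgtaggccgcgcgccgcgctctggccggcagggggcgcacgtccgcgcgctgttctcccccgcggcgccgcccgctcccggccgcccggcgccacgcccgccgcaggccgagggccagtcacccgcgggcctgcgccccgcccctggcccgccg
A match is a description of the letters only.

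In WT tissue the family had no common regional pattern: Gstt1, Gstt2, Gsr, Gclm, Txn1, Gstk1 and Txnl4a were highest in cerebellum, while Gstm5, Gstm1, Gpx2, Gpx3, Sod1, Hmox1 and Txnrd3 were lowest there. Of the 54 kept probe sets, 19 differed between the 3 WT regions (limma, F test blocked by animal, adjusted p under 0.05), which is 35.2% against 39.4% of all kept probe sets. Those 19 were highest in cerebellum in 8 cases, in cortex in 6 and in hippocampus in 5, and lowest in cerebellum in 10, in hippocampus in 6 and in cortex in 3. As shares of all 54, those passing and highest in cerebellum, cortex and hippocampus were 14.8%, 11.1% and 9.26%. Among all kept probe sets these shares were 15.8%, 14.1% and 9.51%. Those passing and lowest in cerebellum, hippocampus and cortex were 18.5%, 11.1% and 5.56% of the 54. Among all kept probe sets they were 18.4%, 8.76% and 12.2%. Taken pair by pair, 8 members were higher in cerebellum than in hippocampus (background 12.4%) and 6 lower (13.5%). Against cortex 9 were higher in cerebellum (16.5%) and 11 lower (20.6%). Hippocampus and cortex were told apart by 1 member, Gsta4 (background 5.42% for hippocampus above cortex and 4.68% for the reverse, where members had 0). Leaving out WT animal 3406 lowered the count of 19 to 9, and leaving out 3405 lowered it to 11. Over all kept probe sets the count fell as well, from 3299 to 1596 and to 2248. Of the 19 members, 7 passed under every alternative that gave them a value: Gstm5 on 100629_at and 100630_f_at, Gstt1, Gstt2, Gsta4, Txn1 and Txnip on 160547_s_at. Gstt1 and Gstt2 had no value with the 60th percentile filter. They were tested because of the region where they were high (below), so their p is no support for the difference. The other 12 of the 19 lost the call when 1 WT animal was left out. For 7 of the 19 these alternatives were run after their values were seen. Gpx2, Gpx3 and Hmox1 lost it without 3405 and without 3406, Gsr and Txnl4a without 3406, Gstm1 without 3405, and Sod1 without 3405 and without 3396. Gclm, Gstk1, Txnrd3, Gstm5 on 161722_f_at and Txnip on 160548_at lost it without any 1 of the 3. Gstm5 on 161722_f_at was also tested because of the regions where it was high (below), so its p is no support either.

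**Figure D1:**
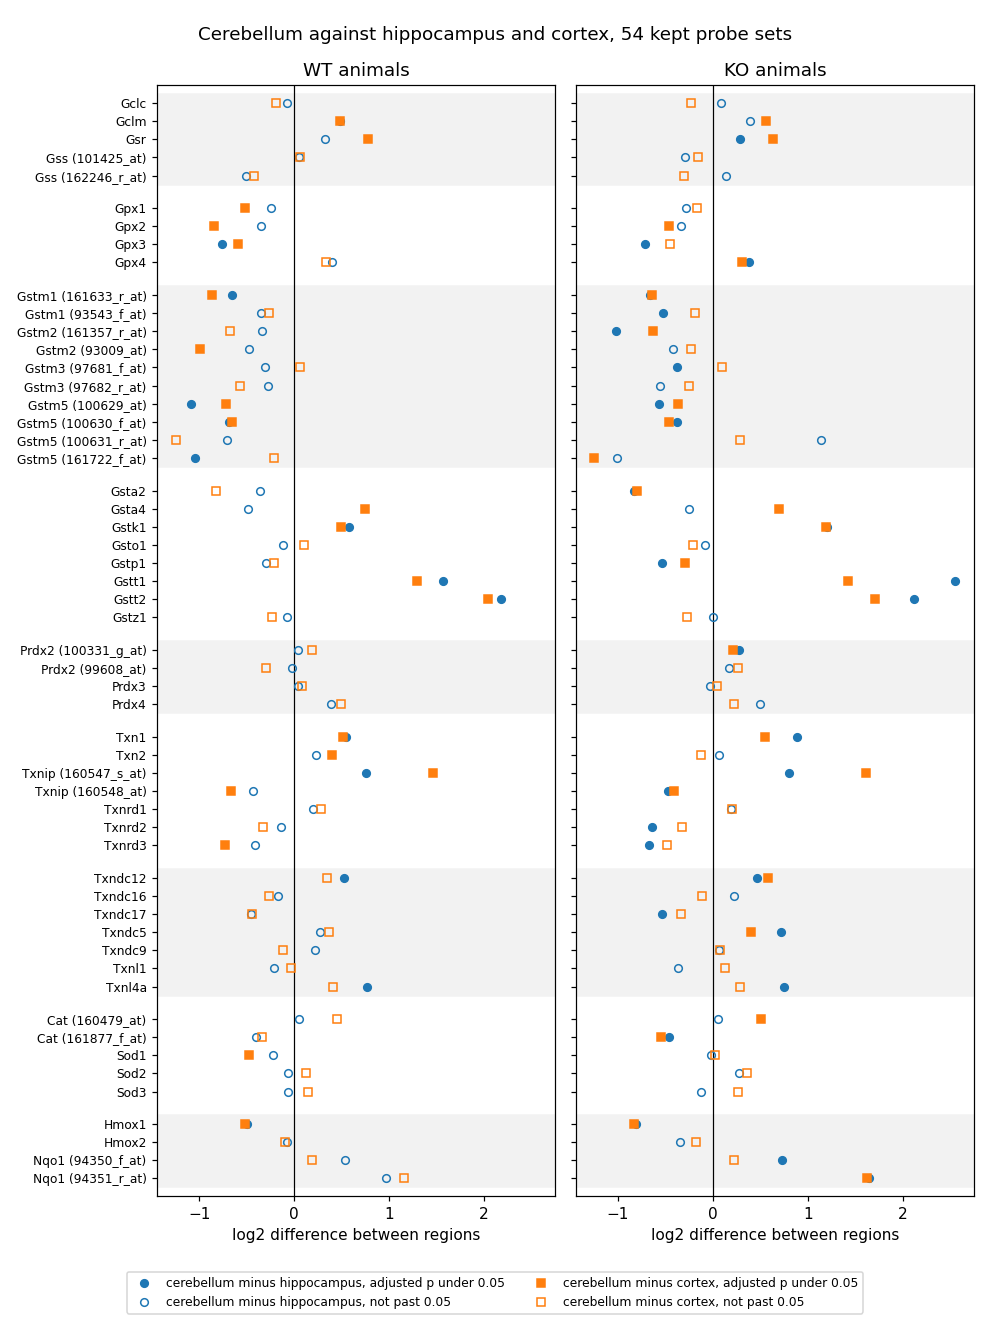
Log2 difference of cerebellum from hippocampus (circles) and from cortex (squares) for the 54 kept probe sets, grouped by role, in the 3 WT animals (left) and the 3 KO animals (right); filled symbols passed an adjusted p of 0.05. Gstt1, Gstt2 and 1 Txnip probe set lie far to the right and the mu-class probe sets mostly to the left in both panels.

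Most mu-class transferase readings were lowest in cerebellum. On 9 of their 10 kept probe sets the lowest WT region was cerebellum, and on 8 of 10 in KO, where 44.2% and 44.2% of all kept probe sets were lowest there. Among the 10, Gstm5 on 161722_f_at and Gstm2 on 93009_at met the filter only on forebrain arrays (0 in cerebellum). Their cerebellar readings thus give no support to these counts. Of the 10, 4 passed in WT and 7 in KO, 161722_f_at among them in both, beside 39.4% and 49.8% of all. As the mu-class sets can share transcripts, they are not separate readings. Gstm5, the mu-class transferase known from brain and testis, read 807, 815 and 926 in WT hippocampus, 566, 714 and 690.4 in cortex and 345, 405 and 453 in cerebellum on probe set 100629_at. Every cerebellar array lay below every forebrain array. The log2 difference of cerebellum from hippocampus was -1.09 ± 0.11 (SE), a 2.13-fold lower signal, with an adjusted p of 7.42e-05 over the regions. The Gstm5 probe set 100630_f_at agreed in direction, with 2171, 2282 and 2413 in hippocampus, 2487, 2014 and 2265 in cortex and 1474, 1156 and 1696 in cerebellum (adjusted p = 0.00182). A dim one, 161722_f_at (39.5 ± 3.96, SD, n = 3, in hippocampus and 19.2 ± 2.04 in cerebellum), also passed, though not without any 1 of the WT animals. It met the filter on 4 forebrain arrays and 0 cerebellar ones, so its p is no support for the difference. Probe set 100631_r_at did not pass (adjusted p = 0.134).

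Gstm1, an abundant transferase of astrocytes, was lower in cerebellum on probe set 161633_r_at. It read 143, 153 and 136 in WT hippocampus, 198, 129 and 180.1 in cortex and 73.4, 92.6 and 112 in cerebellum, with every cerebellar array below every forebrain array (adjusted p = 0.0143). Its brighter probe set 93543_f_at differed less, at 1965 ± 167, 1849.6 ± 76.7 and 1552 ± 227 (SD, n = 3), and did not pass (0.0759). Astrocyte markers (7 of 7 genes kept) summed to 6662 to 7282 in WT hippocampus, 6507 to 6749.6 in cortex and 8939.7 to 9316 in cerebellum, and their part in the regional values was not tested. Gstm2 read 23.5, 17.6 and 33.5 in WT hippocampus, cerebellum and cortex on 93009_at and 136, 107 and 171 on 161357_r_at. Gstm3 read 379, 307 and 294 on 97681_f_at and 135, 119 and 167 on 97682_r_at. None of these 4 passed in WT (adjusted p from 0.0650 to 0.187).

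The theta-class transferases ran the other way. Gstt1 read 70.3, 72.3 and 75.7 in WT cerebellum against 28.5, 26.2 and 19.8 in hippocampus and 29.6, 32.4 and 27.2 in cortex. Gstt2, which lies in the same gene cluster, read 60.6, 67.0 and 66.2 in cerebellum, 23.6, 12.9 and 9.44 in hippocampus and 14.0, 27.6 and 9.84 in cortex. For both genes all cerebellar arrays lay above every forebrain array. Cerebellum exceeded hippocampus by a log2 of 1.57 ± 0.24 for Gstt1 and 2.18 ± 0.41 for Gstt2, which is 2.96-fold and 4.54-fold (adjusted p over regions = 0.00117 and 0.00272). The filter on dim probe sets was met by Gstt2 on 6 of 6 cerebellar and 0 of 12 forebrain arrays, and by Gstt1 on 6 of 6 and 2 of 12. Both were thus tested because of the region where they were high, so their p is no support for the difference, and neither was kept with the 60th percentile filter. The folds rest on dim forebrain readings, and 1 Gstt2 array in WT hippocampus was raised to the floor of 9.46 under which values were not told apart.

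Among the other transferases, Gsta4, which detoxifies the lipid aldehyde 4-hydroxynonenal, was highest in hippocampus. It read 106, 115 and 119.8 in WT hippocampus, 73.5, 85.1 and 85.6 in cerebellum and 31.1, 68.0 and 53.0 in cortex. Hippocampus exceeded cortex 2.35-fold (adjusted p = 0.00620), and no array of the one region reached the other. Gstk1, the mitochondrial and peroxisomal kappa-class enzyme, was higher in cerebellum (101 ± 15.3) than in hippocampus (67.4 ± 11.6) and cortex (71.6 ± 12.4; SD, n = 3, adjusted p = 0.0438, lost without any 1 WT animal). Gstp1, the pi-class enzyme, read 1225 ± 68.9, 1002 ± 130.4 and 1155 ± 117 in WT hippocampus, cerebellum and cortex and did not pass (0.121). Gsta2 read 58.9, 50.9 and 81.7 in the same order, Gstz1, an enzyme of tyrosine breakdown, 206, 196 and 229, and Gsto1 152, 139.9 and 130.2. These 3 did not pass (adjusted p from 0.108 to 0.509).

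Glutathione synthesis and recycling split by enzyme. Gsr read 292, 306 and 274 in WT cerebellum, 210.5, 228 and 256 in hippocampus and 183, 168 and 158 in cortex, so the 3 regions did not overlap. Cerebellum exceeded cortex by a log2 of 0.78 ± 0.13, 1.71-fold (adjusted p over regions = 0.00340). Gclm was also higher in cerebellum (150.2 ± 6.26) than in hippocampus (107 ± 5.78) and cortex (108 ± 9.37; adjusted p = 0.0320, lost without any 1 WT animal). The catalytic subunit Gclc did not pass (157 ± 20.3, 165 ± 12.5 and 178 ± 15.3; adjusted p = 0.517). Gss read 144, 145 and 139.7 in hippocampus, cerebellum and cortex on 101425_at and 64.8, 49.1 and 60.8 on 162246_r_at, and did not pass on either (0.963 and 0.341).

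Of the peroxidases, Gpx3, the secreted form, read 147, 149 and 135 in WT hippocampus, 139.5, 123 and 122 in cortex and 74.5, 83.0 and 98.6 in cerebellum (adjusted p = 0.00940). Gpx2, known from the gut epithelium, read 114, 112 and 110.4 in cortex, 79.9, 81.4 and 77.3 in hippocampus and 47.6, 65.1 and 78.3 in cerebellum (adjusted p = 0.0157). Both were lowest in cerebellum, with no overlap of its arrays with those of cortex. Gpx1, the cytosolic enzyme, read 209, 181 and 252 in hippocampus, cerebellum and cortex, and Gpx4, which reduces lipid peroxides in membranes, 342, 450.1 and 358. Neither passed (adjusted p = 0.0818 and 0.0739).

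In the thioredoxin chain, Txn1, the cytosolic thioredoxin, read 1239, 1099.9 and 1399 in WT cerebellum, 785, 800.3 and 961 in hippocampus and 852, 906 and 835 in cortex. All cerebellar arrays were above all forebrain arrays, with a log2 difference from hippocampus of 0.55 ± 0.11 (adjusted p over regions = 0.00518). Txnl4a, a splicing factor with a thioredoxin fold, read 544, 373 and 428 in cerebellum, 277, 341 and 394 in cortex and 294, 199.8 and 300.1 in hippocampus (adjusted p = 0.0168). Txnrd3 was lower in cerebellum on its kept probe set (190.3 ± 44.0 against 314 ± 66.1 in cortex; 0.0471, lost without any 1 WT animal). The mitochondrial thioredoxin Txn2 read 439.8, 518 and 392 in hippocampus, cerebellum and cortex, the cytosolic reductase Txnrd1 166, 192 and 157 and the mitochondrial reductase Txnrd2 51.5, 46.6 and 58.5, and none of these passed (adjusted p = 0.0899, 0.322 and 0.396).

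The peroxiredoxins did not pass in WT on any of their 4 kept probe sets (0; adjusted p from 0.0899 to 0.756). Prdx2 read 1958, 2012 and 1767 in WT hippocampus, cerebellum and cortex on 100331_g_at and 66.6, 65.9 and 80.7 on 99608_at. Prdx3 of the mitochondrion read 589, 608 and 572 and Prdx4 of the secretory pathway 71.3, 93.7 and 67.1. Among proteins with a thioredoxin fold, Txndc5 read 143, 173 and 136, Txndc9 123, 143 and 155 and Txndc12 113, 164 and 129. Txndc16 read 366, 325 and 386, Txndc17 174, 127 and 172 and Txnl1 160.0, 141 and 146. None of these 6 passed (adjusted p from 0.0700 to 0.594).

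**Figure D2:**
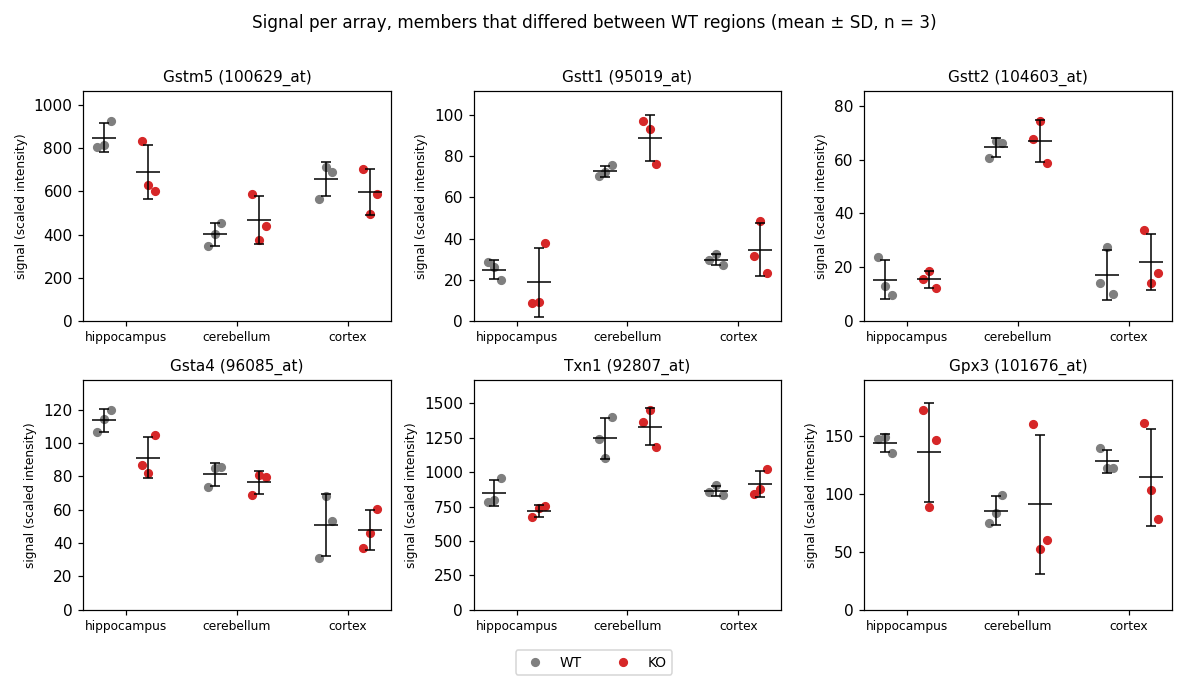
Signal on each array (y axis, linear, from 0) by region for 6 members, WT in grey and KO in red, with mean and SD of 3 animals. The members are Gstm5, Gstt1, Gstt2, Gsta4, Txn1 and Gpx3; in WT, Gstm5 and Gpx3 are lowest and Gstt1, Gstt2 and Txn1 are highest in cerebellum, and Gsta4 is highest in hippocampus.

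Sod1, the cytosolic copper-zinc dismutase, was highest in WT cortex (747 ± 106) and lowest in cerebellum (533 ± 28.9; adjusted p = 0.0328, lost without 3405 or 3396). Sod2 of the mitochondrion read 152, 146 and 134 in hippocampus, cerebellum and cortex and the secreted Sod3 126, 122 and 109, and neither passed (0.566 and 0.633). Hmox1, the inducible haem oxygenase, read 239 ± 13.7 in WT hippocampus, 244 ± 23.5 in cortex and 172 ± 38.1 in cerebellum (adjusted p = 0.0229, lost without 3405 or 3406). The microglia and macrophage markers (8 of 10 genes kept, without Aif1 and Lyz2) were also lowest in WT cerebellum, with a summed signal of 1031 to 1299 against 1996 to 2084 in hippocampus and 1857 to 2014 in cortex. Their part in the Hmox1 values was not tested. Hmox2, the constitutive form, read 78.9, 74.8 and 79.8 in hippocampus, cerebellum and cortex, and Nqo1 20.6, 30.1 and 26.2 on 94350_f_at and 12.4, 25.9 and 9.72 on 94351_r_at. None of these 3 passed (adjusted p = 0.883, 0.293 and 0.0980).

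Txnip, the inhibitor of thioredoxin, gave opposite regional patterns on its 2 probe sets, and both passed. Probe set 160547_s_at read 269, 184 and 241 in WT cerebellum, 146, 146 and 115 in hippocampus and 63.2, 94.0 and 95.7 in cortex. Probe set 160548_at read 57.3, 65.1 and 75.1 in cerebellum, 88.5, 87.8 and 88.5 in hippocampus and 123, 91.7 and 99.8 in cortex. Cerebellum was thus 2.76-fold above cortex on the one and 1.59-fold below it on the other (adjusted p over regions = 0.00129 and 0.0366, the latter lost without any 1 WT animal), and no regional direction can be given for the gene. Catalase (Cat), the peroxisomal enzyme that breaks down hydrogen peroxide, was split likewise. In KO animals 161877_f_at was lower in cerebellum than in cortex (log2 -0.55 ± 0.11, adjusted p 0.00295) and 160479_at was higher (log2 0.51 ± 0.17, 0.0373). Over the 3 KO regions the first passed (adjusted p = 0.00435) and the other did not (0.0516), and in WT neither passed.

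**Figure D3:**
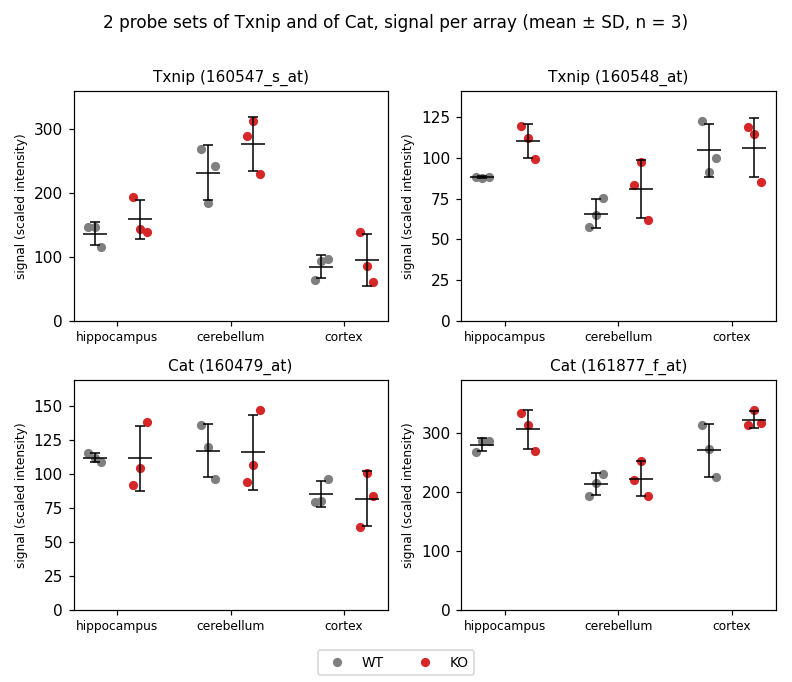
Signal on each array (y axis, linear, from 0) for both probe sets of Txnip (top) and of Cat (bottom), by region, WT in grey and KO in red, with mean and SD of 3 animals. The left probe set of Txnip is highest in cerebellum and the right one lowest.

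The KO animals gave a second, separate reading of the regions. There 29 of the 54 probe sets passed (53.7% against 49.8% of all kept probe sets), 18 without animal 3363 and 19 without 3403. The last 2 counts are given without those over all probe sets, so the fall is not read as particular to the members. Of the 19 that passed in WT, 14 also passed in KO (25.9% of the 54, background 30.7%), and for all 14 of these the lowest region was the same. No background was counted for the lowest region. The highest region was the same for 10, which is 18.5% of the 54 against 26% of all kept probe sets. Of all kept probe sets, 2574 passed in both genotypes and 2183 of these had the same highest region. The 4 other members, on 2 Gstm5 probe sets, Gstm1 and Txnip, were lowest in cerebellum in both genotypes. Gstt1 and Gstt2 again were higher in KO cerebellum (97.1, 93.5 and 76.2, and 67.7, 74.3 and 58.7) than in KO hippocampus (8.84, 9.24 and 37.9, and 15.7, 18.6 and 12.3), with 2 of the Gstt1 hippocampal arrays under the floor. Without animal 3363, Gstt1 (0.0748), Txnl4a and Gstm5 on 161722_f_at no longer passed in KO. Gstt1, Gstt2 and Gstm5 on 161722_f_at count among the 14, and their p is no support in KO either. Txnip on 160548_at lost its KO call without any 1 of the 3 animals. The 5 that passed in WT but not in KO (9.26% of the 54, background 8.65%) were Gclm, Gpx2, Gpx3, Sod1 and Txnrd3. Another 15 passed in KO but not in WT (27.8% of the 54, background 19.1%). They were Gpx4, Gsta2, Gstp1, Nqo1 (94351_r_at), Cat (161877_f_at), Prdx2 (100331_g_at), Txndc5, Txndc12, Txndc16, Txndc17, Txnl1, Txnrd2 and mu-class sets of Gstm1, Gstm2 and Gstm3. Of these 15, Gstp1, Cat and Gstm1 kept the call whichever KO animal was left out. The others lost it without at least 1 KO animal, and Txndc16, Txndc17 and Txnrd2 without any 1 of the 3. Nqo1 met the filter on 3 of 6 cerebellar and 0 forebrain arrays, so its p is no support for the difference. For Gpx3 the KO cerebellar arrays read 160.0, 52.5 and 60.2, so the array of animal 3363 stood well above the other 2. The choroid plexus markers (5 genes kept) summed to 2256 to 3029 over these arrays and 1118 to 3245 in WT cerebellum; their part was not tested. These are separate tests, and whether a regional difference itself differed between genotypes is the interaction tested further on.

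Between KO and WT, no member passed in any region, and Hmox1 came closest. In hippocampus, 0 of 54 probe sets had an adjusted p under 0.05 by limma (background 0.119%) and 5 had an unadjusted p under 0.05, 9.26% against 8.41% of all kept probe sets. The counts were 0 and 5 in cerebellum (backgrounds 0.0358% and 12.1%) and 0 and 5 in cortex (0.286% and 10.2%). These shares lie near the background. KO arrays lay wholly above WT arrays for 8 members in hippocampus (background 10.3%), 4 in cerebellum (7.48%) and 5 in cortex (7.05%). They lay wholly below for 4 (6.93%), 2 (7.74%) and 2 (7.13%). The median standard error of a member's log2 difference was 0.17 in each region.

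The members as a group were centred near 0. Their median log2 difference was 0.06 in hippocampus, 0.08 in cerebellum and 0.02 in cortex, against 0.02, 0.03 and 0.00 over all kept probe sets. Above 0 were 31, 38 and 28 of 54, and 54.6%, 55.6% and 50.5% of all kept probe sets. After median scaling the counts above 0 were 25 in hippocampus, 27 in cerebellum and 31 in cortex. No share of all kept probe sets above 0 was counted under this scaling, so these counts have no background. The hippocampal median moved to -0.02 and the cerebellar one to 0.005. Those of all kept probe sets moved to -0.06 and -0.04, so the member medians are read only against them. The spread ran from -0.71 to 0.75 in hippocampus, -0.35 to 1.51 in cerebellum and -0.50 to 0.69 in cortex.

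**Figure D4:**
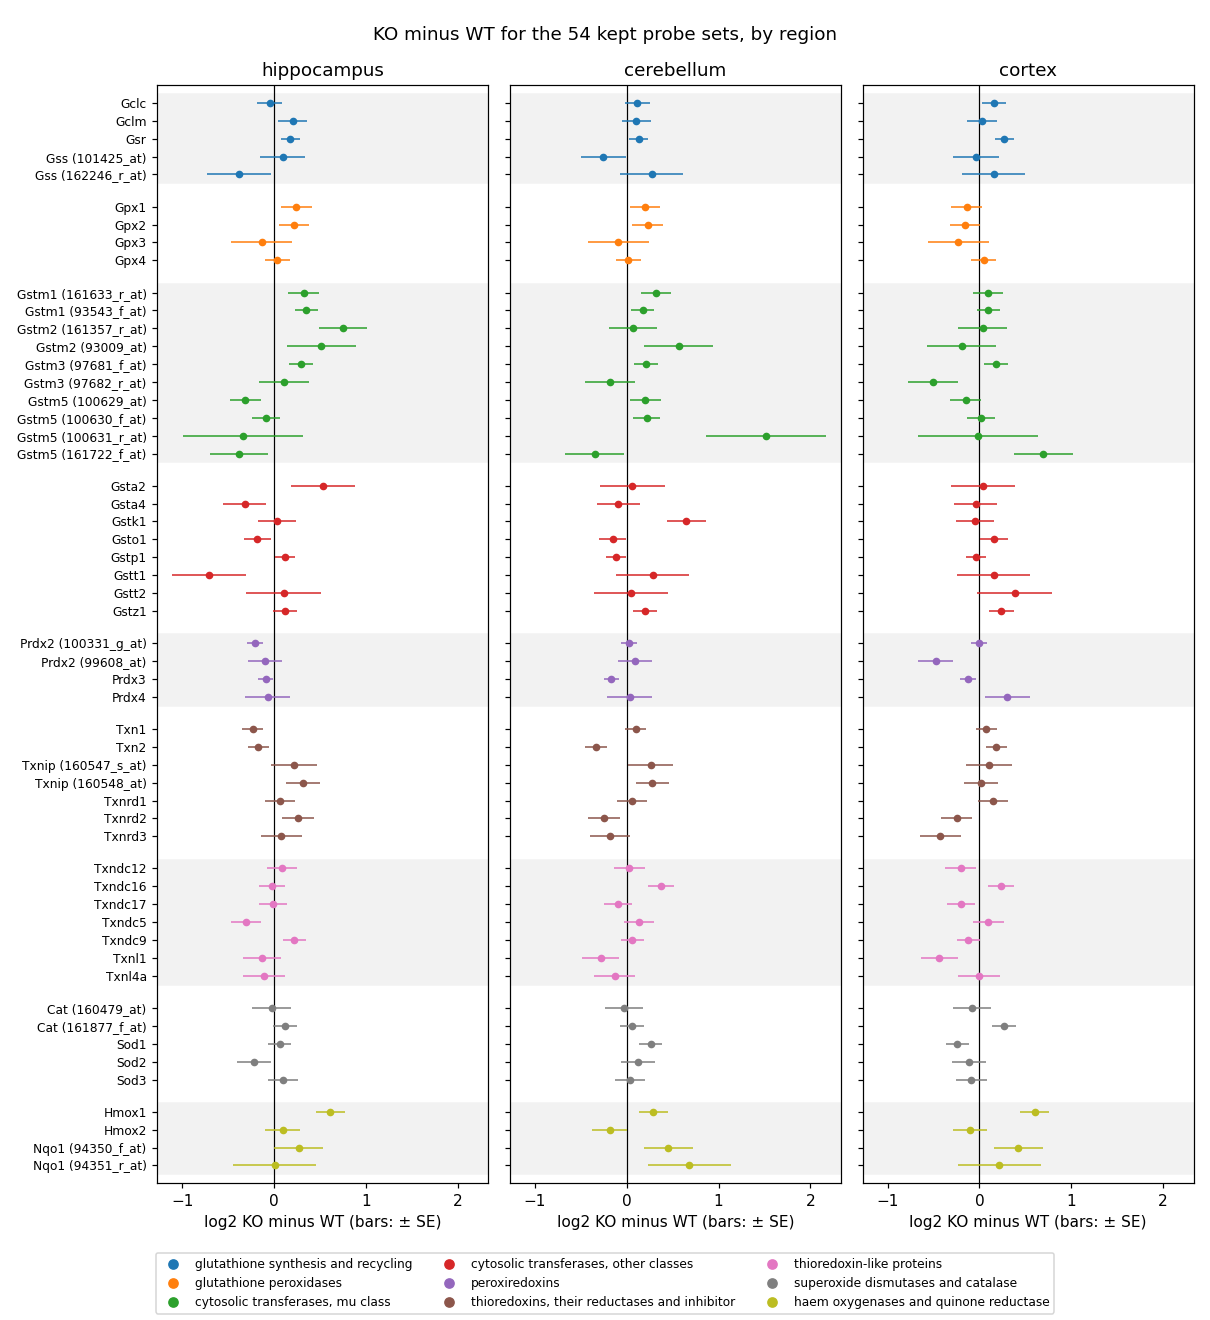
Log2 KO minus WT difference (x axis; bars are the standard error of limma) for the 54 kept probe sets, coloured by role, in hippocampus, cerebellum and cortex. Hmox1 lies right of 0 in all 3 regions and no member passed an adjusted p of 0.05.

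Hmox1, which degrades haem and is a standard readout of oxidative and other cell stress, had the lowest p of the family in hippocampus and in cortex. In hippocampus it read 329, 359.6 and 411 in KO and 229, 255 and 234 in WT, and all KO arrays lay above all WT arrays. In cortex it read 292, 408 and 421 in KO and 217, 259 and 256 in WT, again with no overlap. In cerebellum it read 190.1, 220.3 and 213 in KO and 140.1, 162 and 214 in WT, where WT animal 3396 reached the KO values.

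The log2 difference of Hmox1 was 0.61 ± 0.16 (SE) in hippocampus, 0.29 ± 0.16 in cerebellum and 0.60 ± 0.16 in cortex, with adjusted p of 0.196, 0.486 and 0.156, so it did not pass. Over the mean of the regions, 1 value per animal, the geometric mean was 263, 318 and 333 in the KO animals and 191, 220.5 and 234 in the WT animals. Every KO animal lay above every WT animal (0.50 ± 0.11, adjusted p = 0.183). In none of the alternatives tried did it pass; the lowest adjusted p were 0.0669 in cortex and 0.0920 over the mean of the regions, both without KO animal 3363. The summed microglia and macrophage markers ran 2150.3 to 2741 in KO and 1996 to 2084 in WT hippocampus, and 1892 to 2503 and 1857 to 2014 in cortex, with 10 and 9 of their 10 kept probe sets above 0. In cerebellum they ran 1073 to 1155 and 1031 to 1299, with 5 of 10 above 0. Their part in the Hmox1 difference was not tested.

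**Figure D5:**
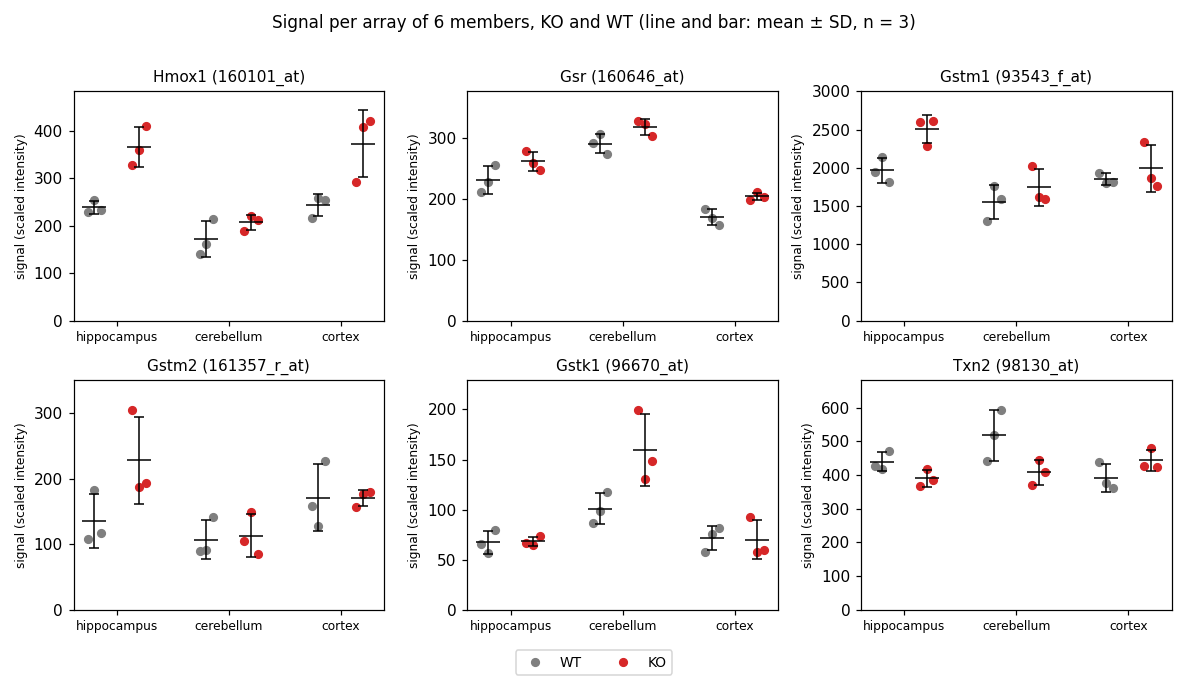
Signal on each array (y axis, linear, from 0) by region for 6 members with low p between KO and WT, WT in grey and KO in red, with mean and SD of 3 animals. The members are Hmox1, Gsr, Gstm1, Gstm2, Gstk1 and Txn2; KO and WT of Hmox1 do not overlap in hippocampus and cortex, nor those of Gsr in cortex or Gstk1 in cerebellum, and none passed the adjusted threshold.

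Next in hippocampus were transferases of the mu class and a peroxiredoxin. Gstm2 read 305, 187 and 194 in KO and 107, 183 and 118 in WT on probe set 161357_r_at, and Gstm1 read 2603, 2290.3 and 2609.8 and 1946, 2142 and 1809 on 93543_f_at. Both were separated without overlap, with log2 differences of 0.75 ± 0.26 and 0.35 ± 0.12 and adjusted p of 0.450 and 0.452. Prdx2, an abundant cytosolic peroxiredoxin of neurons and red cells, read 1510.4, 1727 and 1855 in KO and 1896, 1953 and 2023 in WT (-0.21 ± 0.09, 0.555), with all KO arrays lower. Erythrocyte markers (4 of 4 genes kept) summed to 4043 to 7335 in KO and 6051 to 6402 in WT hippocampus, and the neuron markers had 2 of 9 probe sets above 0 there (median -0.12); the part of either was not tested. Over the 10 mu-class probe sets the median difference was 0.20 in hippocampus, 0.21 in cerebellum and 0.03 in cortex, but the 4 Gstm5 probe sets had negative values in hippocampus, from -0.38 to -0.09.

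In cerebellum the lowest p belonged to Gstk1 and Txn2, both found in mitochondria. There the neuron markers, given above, had 0 of 9 probe sets above 0 (median log2 difference -0.29), and the choroid plexus markers 5 of 5 (median 1.72, with sums that overlapped); their part was not tested. Gstk1 read 199, 131 and 148 in KO and 86.9, 98.3 and 117 in WT, wholly apart (0.65 ± 0.21, adjusted p = 0.225). Txn2 read 371, 445 and 409 in KO and 441, 519 and 593 in WT, with overlap between KO animal 3389 and WT animal 3405 (-0.34 ± 0.12, 0.252). Txndc16, a thioredoxin-domain protein of the endoplasmic reticulum, read 414, 369 and 476 in KO and 391, 277 and 307 in WT (0.38 ± 0.14, 0.278), also with overlap. The fourth was the dim Gstm5 probe set 100631_r_at, whose WT arrays read 71.9, 19.3 and 21.5 and KO arrays 86.0, 144 and 56.0 (1.51 ± 0.66, 0.358); its other 3 probe sets had 0.20, 0.22 and -0.35.

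In cortex Gsr followed Hmox1. It read 199, 211 and 204 in KO and 183, 168 and 158 in WT, wholly apart (0.27 ± 0.10, adjusted p = 0.346). The dimmer Prdx2 probe set 99608_at read 55.8, 47.6 and 72.6 in KO and 71.9, 88.6 and 81.5 in WT (-0.48 ± 0.19, 0.365), while the bright one, 100331_g_at, differed by 0.00 ± 0.09, near 0. Gstm5 probe set 161722_f_at read 31.9, 35.1 and 40.8 and 28.9, 21.9 and 17.0 (0.69 ± 0.32, 0.469). None of these 3 passed. The other Gstm5 probe sets differed in cortex by -0.15 ± 0.17, 0.02 ± 0.15 and -0.01 ± 0.66. In this region the 3' to 5' ratio of the Gapdh control, a measure of RNA integrity, was 0.797 to 0.812 in KO and 0.885 to 0.924 in WT, without overlap. That of the beta-actin control was 1.64 to 1.88 in KO and 1.69 to 1.93 in WT, with overlap. Between regions, the WT beta-actin ratio was 1.18 to 1.37 in cerebellum and 1.09 to 1.46 in hippocampus, both below cortex. In KO it was 1.34 to 1.39 and 1.27 to 1.40, again below cortex. The WT Gapdh ratio was 0.788 to 0.801 in cerebellum, below cortex, and 0.812 to 0.890 in hippocampus, with overlap. The part of RNA integrity in the cortex values and in the regional differences was not tested.

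Over the mean of the regions, 0 of 54 members passed (background 0.179%). An unadjusted p under 0.05 was reached by 8, all higher in KO, 14.8% against 5.27% of all kept probe sets in that direction and 10.1% in either. KO animals lay wholly above WT animals for 5 members (background 8.59%) and below for 1 (7.02%), and 30 of 54 differences were above 0 (54.6%). The 8 were Hmox1, Gsr, 2 probe sets of Gstm1, 1 each of Gstm2 and Gstm3, Gstz1 and Txndc16, and the mu-class ones among them can share transcripts. Gsr had geometric means of 263, 260.1 and 248 in KO and 224, 227 and 223 in WT animals (0.19 ± 0.07, adjusted p = 0.421). Gstm1 had 2309.9, 1908 and 1945 and 1702, 1893 and 1733 on 93543_f_at (0.21 ± 0.08, 0.431), and 151, 162 and 148 and 128, 122 and 140.0 on 161633_r_at (0.24 ± 0.09, 0.421). For Gsr and for both Gstm1 probe sets the KO animals lay above the WT animals. The median standard error on this scale was 0.11.

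For several central enzymes of the system the log2 differences were small or uncertain. Gclc, the rate-limiting subunit of glutathione synthesis, differed by -0.05 ± 0.13 in hippocampus, 0.12 ± 0.13 in cerebellum and 0.16 ± 0.13 in cortex, and its partner Gclm by 0.20 ± 0.16, 0.10 ± 0.16 and 0.03 ± 0.16. Gpx4 differed by 0.04 ± 0.14, 0.02 ± 0.14 and 0.05 ± 0.14, all under their standard error. Gpx1 differed by 0.24 ± 0.17, 0.20 ± 0.17 and -0.14 ± 0.17. Txnrd1, which recharges cytosolic thioredoxin, differed by 0.07 ± 0.16, 0.06 ± 0.16 and 0.14 ± 0.16, and the mitochondrial peroxiredoxin Prdx3 by -0.09 ± 0.08, -0.17 ± 0.08 and -0.12 ± 0.08. Sod2 differed by -0.22 ± 0.18, 0.12 ± 0.18 and -0.12 ± 0.18. Nqo1, a classical Nrf2 target, differed by 0.27 ± 0.27, 0.45 ± 0.27 and 0.42 ± 0.27 on 94350_f_at, at dim signals of 20.6 to 41.4 as group means. On its other kept probe set, 94351_r_at, it differed by 0.01 ± 0.45, 0.68 ± 0.45 and 0.22 ± 0.45. None of these passed in any region.

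The genotype effect was not shown to differ between regions for any member: 0 of 54 had an adjusted p under 0.05 for the interaction (background 0.0477%), and 4 an unadjusted p under 0.05 (7.41% against 10.7%). The lowest belonged to Gstm5 (100629_at), Sod1 and Txn2, with adjusted p of 0.294, 0.369 and 0.379. Gstm5 read 832, 629 and 603 in KO against 807, 815 and 926 in WT hippocampus, and 587, 372 and 441 against 345, 405 and 453 in cerebellum. Sod1 read 679.8, 578 and 659.8 in KO against 554, 544 and 499.7 in WT cerebellum, where the groups did not overlap, and 703, 545 and 645 against 806, 625 and 809 in cortex, where they did. Txn2 read 369, 417 and 385 in KO against 428, 419 and 472 in WT hippocampus, and 428, 480.0 and 425 against 438, 376 and 361 in cortex.

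Genes around the family were given by a list of 79 genes, of which 54 were on the array and 42 were kept, on 52 probe sets. Of these 52, 1 rose in KO hippocampus (background 0.0358%) and 0 fell, and 0 passed in cerebellum, in cortex or over the mean of the regions. The 1 was Slc3a2, the heavy chain shared by the cystine importer and other amino acid transporters (1428 ± 189 in KO and 878 ± 47.6 in WT, log2 0.70 ± 0.11, adjusted p = 0.0101). Its difference stayed above 0 in all alternatives, which were run for it after its value was seen, but it no longer passed without WT animal 3405 (0.125) or 3406 (0.133), with median scaling (0.0551), without the intensity trend (0.0580) or from the hippocampal arrays alone (0.235). In cortex the lowest p belonged to Slc3a2 as well, which did not pass there (0.45 ± 0.11, 0.140), nor did Pgd, an NADPH-forming dehydrogenase (0.33 ± 0.11, 0.276). In cerebellum the lowest were Bach1, a repressor of Hmox1 (0.95 ± 0.25, 0.143), and Taldo1, transaldolase of the pentose phosphate pathway (-0.31 ± 0.12, 0.289). Over the mean of the regions they were Slc3a2 (0.0830) and Cyba, a subunit of the superoxide-forming NADPH oxidase of phagocytes (0.39 ± 0.10, 0.269).

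By role, the Nrf2 control list (6 genes kept on 8 probe sets) had medians of 0.09, 0.06 and 0.13 in hippocampus, cerebellum and cortex, and Nfe2l2 itself differed by 0.25 ± 0.18, 0.22 ± 0.18 and 0.21 ± 0.18. The NADPH supply list (8 genes) had -0.08, -0.15 and -0.08. Glutaredoxins, methionine sulfoxide reductases and sulfiredoxin (5 genes) had 0.04, -0.09 and -0.13. Metal-binding proteins and selenoproteins (7 genes) had -0.08, 0.02 and 0.01. Microsomal transferases and other detoxification enzymes (9 genes) had -0.03, 0.04 and 0.14. Cystine uptake and glutathione turnover (5 genes) had -0.12, -0.07 and 0.37. The genes kept from a list of oxidases and their subunits, Cyba on 2 probe sets and Maoa on 1, had 0.36, 0.36 and 0.38. Their summed signal was 407 to 433 in KO and 302 to 356 in WT hippocampus, and 362 to 387 and 262 to 343 in cortex, both without overlap, and 399 to 445 and 357 to 413 in cerebellum, with overlap. None of the 3 probe sets passed in any region (0). The microglia and macrophage markers given with Hmox1 had 10 of 10 kept probe sets above 0 in hippocampus, 9 in cortex and 5 in cerebellum. Their part in the Cyba values was not tested.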

How the data were processed

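The authors deposited a linear intensity for each probe set and array, already scaled to a common level: the mean after trimming 2% at each end was 150.07 to 150.08 on all 18 arrays. Software: not given in the sources used here. Median signal per array was 53.5 to 64.8; the number of arrays, 3 per group, limits the precision. Without the 66 control probe sets, signals below a floor of 9.46, the 20th percentile of the whole table, were set to it before taking log2. Of 972 kept member values, 9 lay under this floor. Probe sets were named from GEO's platform annotation, which gave 1 symbol to 10855, several to 396 and none to 1237; all 63 members were found in the reference gene table (GRCm38.p6).

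KO and WT were compared per region with limma 3.58.1 (R 4.3.3), 6 group means over 18 arrays with an intensity trend, and over the mean of the regions on 1 value per animal. For region differences and the interaction, F tests blocked by animal were used. All tests were two-sided, and p was adjusted by Benjamini-Hochberg across the 8382 kept probe sets (threshold 0.05). The fits were tested on simulated data. Each animal is a separate mouse by its number in the title; arrays of 1 animal had a median residual correlation of 0.135, against -0.0159 between animals. Array values in full were given for members past the threshold, otherwise the 4 of lowest p per comparison, 3 for the interaction and 12 for the WT regions; of other pathway genes, any that passed were named, and failing that the 2 with the smallest p. Array values of other members, the choice of figures and of promoters followed a look at the values. Members and lists were chosen with earlier results of these data known. Alternatives were quantile normalization, median scaling, a pseudocount of 16 for the floor, dropping or tightening the filter (60th percentile), fitting without the trend, the animal block, the region's own arrays and each animal left out.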

Additional observations from a re-analysis of the deposited data

How the results depend on the processing

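The count of members called between KO and WT was 0 in every region, over the mean of the regions and for the interaction under every alternative tried, the animal as a random replicate block (0 higher and 0 lower in each region) and each animal left out among them. The count between WT regions was 18 without the replicate block, 12 with no filter on dim probe sets, and 9 to 15 with 1 animal left out. Over all probe sets tested the count was 3299 in the main fit, and 3320, 2221 and 1596 to 2276 in these alternatives. Between KO regions the count of members was 24 without the block and 18 to 22 with 1 animal left out. These KO counts are given without those over all probe sets, so the fall is not read as particular to the members. With no filter more dim probe sets are adjusted for, and with an animal left out fewer arrays enter. Of 371 values of single named members under an alternative, 360 kept their direction and side of the threshold, 11 no longer passed, all of them between WT regions (Gsr, Gpx3, Gstm1, Gpx2 and Txnl4a), and 0 reversed. Of the 7 other members that passed between WT regions, Sod1, Hmox1, Txnrd3 and Txnip (160548_at) also did not pass with median scaling, nor Gstk1 without the replicate block or with the 60th percentile filter. Median scaling moved the median of all kept probe sets in KO minus WT hippocampus to -0.06 and in cerebellum to -0.04. It also moved regional differences, as the median signal was 53.5 to 56.9 on WT cerebellar and 62.2 to 63.7 on WT cortex arrays. WT cerebellum minus cortex went from -0.71 to -0.54 for Gstm5 on 100629_at and from 1.29 to 1.47 for Gstt1. The count between WT regions was then 21, and 3345 over all kept probe sets. Dim readings limit Gstt1, Gstt2 and Nqo1, the only kept members with arrays under the floor.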

Other observations

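Some of the probe sets left out of the tests read as follows. Both Gpx5 probe sets, for a peroxidase known from the epididymis, had group means of 14.7 to 38.2. Gpx7, a peroxidase of the endoplasmic reticulum, had 11.1 to 18.9. Probe set 104636_at of Gstm6 read 12.7, 1.57 and 26.7 on the KO cortex arrays and 3.15, 1.62 and 5.41 on the WT ones, so in the KO group some arrays lay over the floor of 9.46 and 1 under it. The 100330_at probe set of Prdx2 read 0.751 to 1.33 as group means, where 100331_g_at of the same gene read 1697 to 2053.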
